A study of Mus musculus with 6 samples.

Results

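Expression of the 9 genes of the GDNF family, the 4 ligand genes *Gdnf*, *Nrtn*, *Artn* and *Pspn* and the 5 receptor genes *Ret*, *Gfra1*, *Gfra2*, *Gfra3* and *Gfra4*, was examined in cultured mouse retinal ganglion cells (RGCs), the neurons whose axons form the optic nerve. The genes were taken by symbol, and all 9 were among the 43346 Ensembl genes of the deposited tables. RGCs had been purified by immunopanning with an antibody to CD90.1 (the product of *Thy1*) and received an AAV2 for control, for Sox11, or for Sox11K91A, with 2 libraries per group and 6 in all. Sox11 is an SRY-related transcription factor, and in Sox11K91A its lysine 91, a site where the small protein SUMO is attached, is replaced by alanine. The Sox11 and Sox11K91A viruses also encode EGFP and the control virus encodes EGFP alone, and RNA was taken from whole cultures, in which not every cell need carry virus. All groups were kept in a medium with forskolin, BDNF and CNTF, AAV was added 4 h after plating, and RNA was extracted 72 h after plating. The protocols name embryonic day 18 for the sequenced cells and postnatal day 2 for the culture method, while the deposited tables carry P0 in their names. They describe 3 RNA samples sequenced in duplicate, and do not say that replicates came from separate cultures, so the p-values given here measure the spread between these libraries, which may be technical.

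GDNF family ligands are secreted survival factors of the TGF-beta superfamily. Each binds by preference a GFR-alpha co-receptor held to the membrane by a lipid anchor, GDNF to the product of *Gfra1*, neurturin to that of *Gfra2*, artemin to that of *Gfra3* and persephin to that of *Gfra4*, and the complex activates the receptor tyrosine kinase RET. RET then recruits adaptor proteins that start the ERK and AKT cascades. In the retina GDNF and neurturin are known as survival factors for RGCs and photoreceptors.

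Promoter windows ran from 250 bases before to 50 after a transcript start of RefSeq (GRCm38.p6). They were examined for 6 of the 9 genes, 8 windows in all. Windows of *Ret*, *Gfra2* and *Gfra3* were not among those examined, which is no statement that RefSeq lacks them. The letters ACAAAG, and in a further search the letters ACAATG, which SOX proteins are known to bind, were looked for on both strands. The window before a *Gdnf* start, at chr15:7809798-7810047 on the plus strand, is shown because *Gdnf* was lower with Sox11, and that of a *Gfra4* start inside the gene, at chr2:131042683-131042932 on the minus strand, because it was the window of the 8 with a SOX match. Both run 5′ to 3′ and end at the base before the start.
Gdnf: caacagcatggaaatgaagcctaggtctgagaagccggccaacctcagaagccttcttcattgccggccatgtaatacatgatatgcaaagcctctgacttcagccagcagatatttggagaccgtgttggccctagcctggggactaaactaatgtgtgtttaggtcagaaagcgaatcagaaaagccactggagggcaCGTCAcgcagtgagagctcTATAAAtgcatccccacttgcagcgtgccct
Gfra4: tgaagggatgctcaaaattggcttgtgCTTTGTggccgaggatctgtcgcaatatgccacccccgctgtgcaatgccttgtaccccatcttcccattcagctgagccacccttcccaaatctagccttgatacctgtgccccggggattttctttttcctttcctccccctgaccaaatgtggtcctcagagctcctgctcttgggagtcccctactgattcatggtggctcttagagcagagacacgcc
In the *Gfra4* window the capitals mark CTTTGT, the reverse complement of the first of these, whose first base lies 223 bases before the start. Of the 32851 mouse windows of 300 bases, 18.7% held ACAAAG, a smaller share of 12.6% held ACAATG, and 28.6% held either. In the *Gdnf* window the capitals mark CGTCA, in reverse complement the core of a cAMP response element (TGACG), 50 bases before the start, and TATAAA, a core promoter sequence, 31 bases before it. These letters were picked after the window was read, and on either strand 20.8% of all windows held the first and 13.6% the second.

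Total expected counts, the reads RSEM assigned to genes, were between 27521982 and 37061718 per library. After removal of genes with low counts, 15747 genes were tested with limma-voom in 1 fit of the 6 libraries, and a gene was called at an FDR under 0.05 (Benjamini-Hochberg over all genes tested) with an absolute fold change above 1.2. *Sox11* was 41.6-fold higher with Sox11 and 33.0-fold higher with Sox11K91A than in control, where counts from virus and genome were not separated. Of the GDNF family, 8 genes were tested, and *Pspn* had too few counts. Levels are given as CPM, counts scaled to library size with TMM factors, for comparisons of 1 gene between libraries, and as TPM, which is scaled by length, between genes. The second replicates of control and of Sox11 lay apart from the rest in earlier results of these data. What leaving them out did to the calls is described. Both comparisons with control share the same 2 control libraries.

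*Gfra2*, the neurturin co-receptor, and *Gdnf* were lower with Sox11 than in control, 5.04-fold and 4.31-fold. The other 6 genes tested did not pass the threshold, and no member passed it with Sox11K91A or between Sox11K91A and Sox11. The share of members called with Sox11, 2 of 8, stands beside 20.1% of all genes tested called in either direction, 10.2% called lower and 9.96% called higher. With Sox11K91A, 0 of 8 members stand beside 10.6% of all genes, 4.81% lower and 5.81% higher. Between Sox11K91A and Sox11, 0 genes were called of all tested (0%), with 108 at an unadjusted p under 0.05, 0 by edgeR and 2 by DESeq2. The median log2 fold change of the 8 members was -1.17 with Sox11 and -0.98 with Sox11K91A, beside 0.01 and 0.02 for the whole table. These medians include 3 ligands with few counts and do not describe every member. With Sox11 the receptors were at -2.33 (*Gfra2*), -1.54 (*Ret*), -0.34 (*Gfra3*), -0.23 (*Gfra4*) and 0.11 (*Gfra1*). With Sox11K91A they were at -1.28, -0.73, 0.14, -0.28 and 0.38 in the same order.

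**Figure D1:**
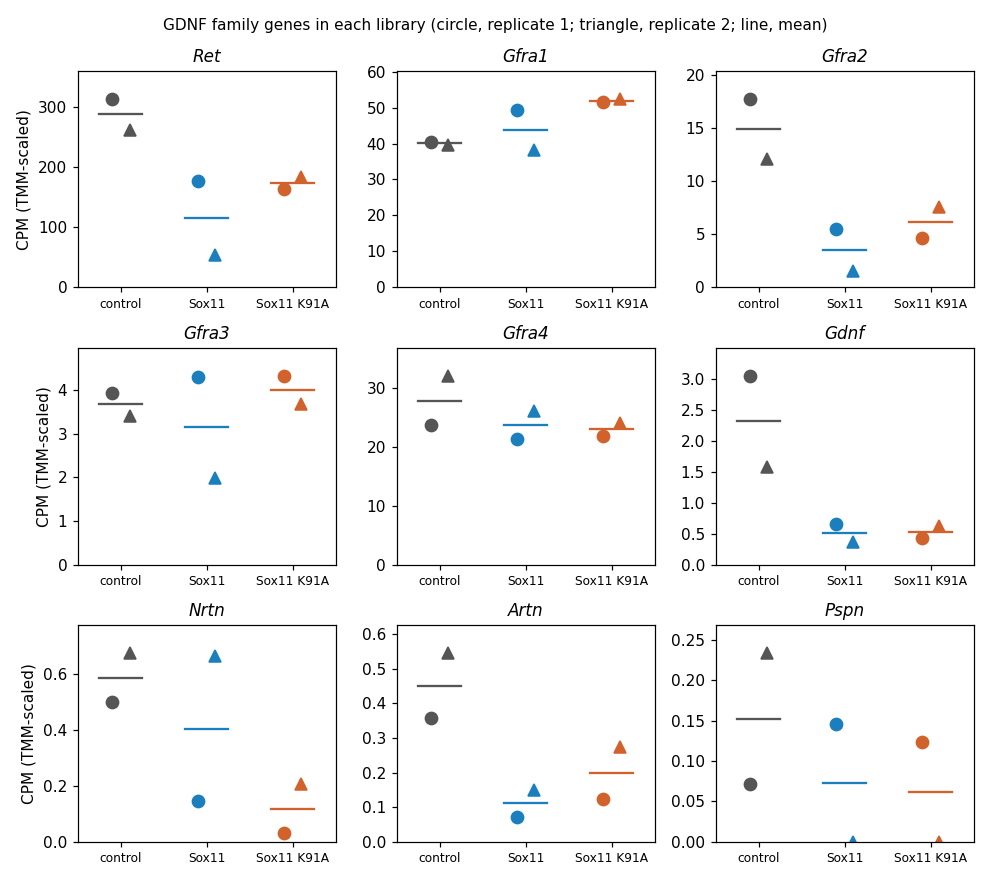
CPM of the 9 GDNF family genes by group (vertical axes start at 0), with a circle for replicate 1, a triangle for replicate 2 and a line for the mean of the 2 libraries. The libraries with either Sox11 virus lie below both control libraries for *Ret*, *Gfra2*, *Gdnf* and *Artn*, and *Gfra4* and *Gfra3* overlap between groups.

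*Gdnf* (chr15:7810846-7837575, plus strand, GRCm38) encodes the founding ligand of the family. It had 85 and 61 counts in the control libraries, 18 and 12 with Sox11, and 14 and 18 with Sox11K91A. All 4 libraries with a Sox11 virus were thus below both controls, and the libraries of the 2 viruses overlapped. Scaled for depth, this was 2.31 ± 1.03 CPM in control, 0.509 ± 0.207 with Sox11 and 0.526 ± 0.129 with Sox11K91A (SD, n = 2 here and throughout). The log2 fold change of *Gdnf* was -2.11 with Sox11 (SE 0.59, adjusted p = 0.0485) and -2.01 with Sox11K91A (SE 0.58, adjusted p = 0.0712). With at most 85 counts in a library, *Gdnf* was a low transcript, at 1.82 and 0.86 TPM in control. Its call with Sox11 was kept in 9 of 18 alternatives, and *Gdnf* was called with Sox11K91A in 4 of 18, with an adjusted p of 0.0163 by DESeq2. Without replicate 1 of control the adjusted p was 0.0812, without replicate 1 or 2 of Sox11 it was 0.0842 or 0.272, and without replicate 1 or 2 of Sox11K91A, which adds to the estimate of the spread, it was 0.0995 or 0.1, with log2 fold changes between -2.52 and -1.66.

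*Nrtn* encodes neurturin, and its counts were 14 and 26 in control, 4 and 22 with Sox11, and 1 and 6 with Sox11K91A. The Sox11 libraries spanned the controls, and both Sox11K91A libraries were below them. The log2 fold change of *Nrtn* was -0.80 with Sox11 (adjusted p = 0.522) and -2.61 with Sox11K91A (SE 1.06, adjusted p = 0.152), neither past the threshold.

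*Artn* encodes artemin, a ligand known from sensory and sympathetic neurons. It had 10 and 21 counts in control, 2 and 5 with Sox11, and 4 and 8 with Sox11K91A. The groups did not overlap against control, yet log2 fold changes of -1.90 with Sox11 (SE 0.78, adjusted p = 0.123) and -1.23 with Sox11K91A (SE 0.71, adjusted p = 0.29) did not pass the threshold at this depth. *Pspn*, which encodes persephin, had 2 and 9 counts in control, 4 and 0 with Sox11, and 4 and 0 with Sox11K91A. Counts of 0 to 9 do not allow a direction to be read for *Pspn*.

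Per length, the 4 ligand transcripts summed to 4.08 and 4.87 TPM in the control libraries, 2.05 and 2.07 TPM with Sox11, and 1.45 and 1.21 TPM with Sox11K91A. The ligand sum of every library with a virus encoding Sox11 was below both controls, but single low transcripts carried much of it: *Pspn*, with 4 counts, gave 1.18 of 2.05 TPM in replicate 1 of Sox11 and 0.99 of 1.45 TPM in replicate 1 of Sox11K91A. *Ret*, *Gfra1*, *Gfra3* and *Gfra4* were each above every ligand in all 6 libraries. *Gfra2* was too, except in replicate 2 of Sox11 (0.98 TPM, beside 1.69 TPM for *Nrtn*). The order in control was *Ret* (90.7 and 66.6 TPM), *Gfra4* (44.7 and 52.0), *Gfra1* (27.5 and 21.3), *Gfra2* (10.8 and 6.70) and *Gfra3* (4.36 and 3.46), with no overlap between neighbours. The 4 ligands followed at 0.48 to 1.82 TPM, and the ranges of neighbours among them overlapped.

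*Ret* (chr6:118151745-118197718, minus strand) encodes the signalling receptor that the 4 ligands share. Its level was 313 and 262 CPM in the control libraries, 177 and 54.6 CPM with Sox11, and 163.5 and 183 CPM with Sox11K91A. All 4 libraries with a Sox11 virus were below both controls, and replicate 2 of Sox11 was the lowest of the 6. The log2 fold change of *Ret* was -1.54 with Sox11 (SE 0.49, 2.91-fold lower, adjusted p = 0.065) and -0.73 with Sox11K91A (SE 0.49, 1.66-fold lower, adjusted p = 0.363), so *Ret* did not pass the threshold with either in this fit. It passed with Sox11 in 4 of 18 alternatives, among them DESeq2 (adjusted p = 0.018) and a block for the second replicates of control and Sox11 (adjusted p = 0.0184). The labels name no such block. It was set because these libraries lay apart in these same data, so its lower p is no independent support. Without replicate 2 of Sox11 the *Ret* difference with Sox11 was -0.69 (adjusted p = 0.152) and without replicate 1 it was -2.41 and passed (adjusted p = 0.013). Fitted with Sox11K91A and control alone, the difference of -0.73 with Sox11K91A passed the threshold (adjusted p = 0.0479), 1 of the 3 alternatives of 18 in which it passed.

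*Gfra2* (chr14:70890120-70979838, plus strand) had 17.8 and 12.1 CPM in control, 5.53 and 1.57 CPM with Sox11, and 4.66 and 7.58 CPM with Sox11K91A. The control libraries were the highest 2 of the 6, and the libraries of the 2 viruses overlapped. *Gfra2* fell with Sox11, with a log2 fold change of -2.33 (SE 0.54, adjusted p = 0.0296), and the value with Sox11K91A was -1.28 (SE 0.46, 2.43-fold lower, adjusted p = 0.114). The call with Sox11 was kept in 13 of 18 alternatives. Without replicate 2 of Sox11 the log2 fold change of *Gfra2* was -1.37 (adjusted p = 0.17), and without replicate 1 of control it was -2.09 (adjusted p = 0.0551).

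*Gfra1*, the co-receptor gene for GDNF itself, had 40.5 and 39.5 CPM in control, 49.2 and 38.3 CPM with Sox11, and 51.4 and 52.4 CPM with Sox11K91A. Both Sox11K91A libraries were above the other 4. With 2 against 2 libraries, 31.2% of all genes had both Sox11K91A libraries above both controls. The log2 fold change of *Gfra1* was 0.11 with Sox11 (SE 0.16, adjusted p = 0.647) and 0.38 with Sox11K91A (SE 0.16, adjusted p = 0.166). On the TPM scale *Gfra1* was 27.5 and 21.3 in control, 40.8 and 28.1 with Sox11, and 37.0 and 33.6 with Sox11K91A. On that scale no library of either virus was below the controls. The scales differ through the effective length RSEM used for *Gfra1*, a gene with 9 annotated transcripts, which varied from 2397 to 3317 bases between libraries, or by 38.4% of the lowest. An antisense gene, *Gm16277*, shares 416 exonic bases (7.6%) with *Gfra1*, and without knowledge of strand their reads cannot be told apart.

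*Gfra3*, the artemin co-receptor gene, was at 3.94 and 3.40 CPM in control, 4.30 and 1.99 CPM with Sox11, and 4.31 and 3.67 CPM with Sox11K91A. Its groups overlapped, and the log2 fold changes were -0.34 (SE 0.40, adjusted p = 0.569) and 0.14 (SE 0.38, adjusted p = 0.846). *Gfra4*, the persephin co-receptor gene, was at 23.7 and 32.1 CPM in control, 21.4 and 26.2 CPM with Sox11, and 22.0 and 24.1 CPM with Sox11K91A. The 95% interval of the *Gfra4* difference ran from -0.71 to 0.25 with Sox11 and from -0.76 to 0.21 with Sox11K91A. The exons of *Gfra4* hold the microRNA gene *Mir6973b* over 80 bases (3.7%), where position alone does not assign a read. The expected counts of *Gfra4* were whole numbers in all 6 libraries (588 to 1236), so no split of its reads with another gene was seen.

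**Figure D2:**
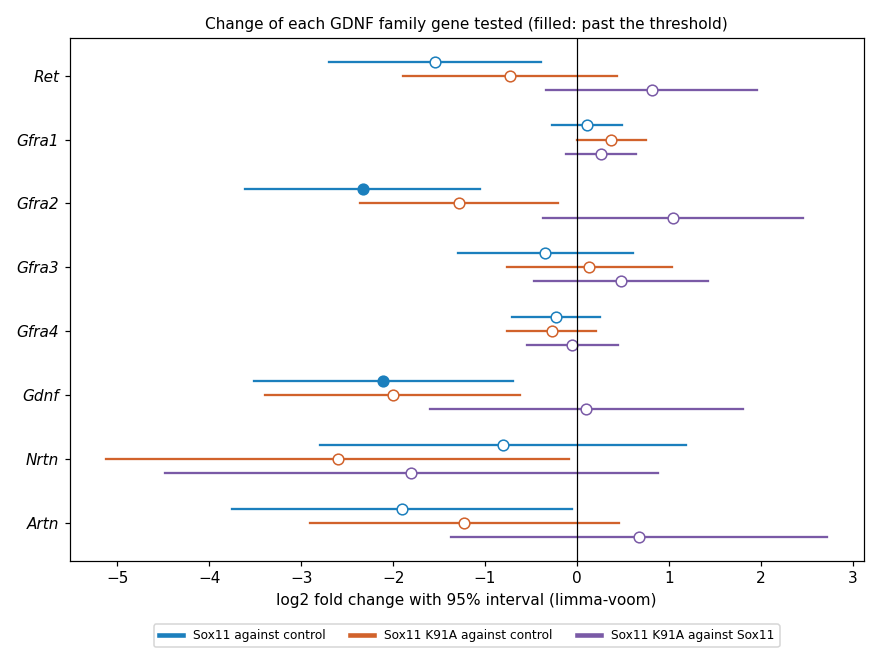
Log2 fold change (points) and 95% interval (lines) from limma-voom for the 8 genes tested, for each virus against control and for Sox11K91A against Sox11, with filled points past the threshold. *Gfra2* and *Gdnf* with Sox11 are the filled points, and every interval of Sox11K91A against Sox11 includes 0.

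Groups that do not overlap were counted for each comparison. With Sox11, 4 of the 8 members (*Gdnf*, *Artn*, *Ret* and *Gfra2*) were lower than control without overlap and 0 were higher, beside 30.6% of all genes lower and 30.9% higher. With Sox11K91A, 5 members (the same 4 and *Nrtn*) were lower and *Gfra1* was higher, beside 30.7% lower and 31.2% higher of all genes. Between Sox11K91A and Sox11, 0 members were lower and *Gfra1* was higher, beside 13.4% lower and 13.3% higher of all genes. For scale, the whole table had a median size of change of 0.46 (Sox11) and 0.39 (Sox11K91A) on the log2 scale.

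Sox11K91A was compared with Sox11 directly to ask whether the substitution altered these genes. *Ret* differed by 0.81 on the log2 scale (95% interval -0.33 to 1.96) and *Gfra2* by 1.05 (-0.37 to 2.47), both higher with Sox11K91A, with an adjusted p of 1. The intervals are wide enough to include more than a doubling, so equal levels under both viruses were not shown. *Gdnf* differed by 0.10 (-1.60 to 1.80), *Nrtn* by -1.80 (-4.49 to 0.88) and *Artn* by 0.68 (-1.37 to 2.73). The narrowest intervals were those of *Gfra1*, 0.26 (-0.12 to 0.64), and *Gfra4*, -0.05 (-0.54 to 0.45). Without replicate 2 of Sox11 the difference of *Ret* was -0.04 and that of *Gfra2* was 0.09, and without replicate 1 of Sox11 they were 1.68 and 1.91.

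The makeup of the co-receptor pool was compared per length. The 4 co-receptor genes summed to between 77.8 and 89.8 TPM in all 6 libraries. Within that sum the share of *Gfra2* was 12.3% and 8.03% in control, 3.79% and 1.26% with Sox11, and 3.36% and 5.39% with Sox11K91A. The share of *Gfra1* was 31.5% and 25.5% in control, 45.4% and 36.1% with Sox11, and 44.3% and 39.9% with Sox11K91A, and *Gfra4* held the largest share in 5 libraries and about the same as *Gfra1* (45.4% each) in replicate 1 of Sox11. The libraries of both viruses were thus below control for the share of *Gfra2* and above it for that of *Gfra1*, on the scale that includes the effective length noted above. The ratio of *Ret* to the sum of its co-receptors was 1.04 and 0.797 in control, 0.572 and 0.206 with Sox11, and 0.559 and 0.613 with Sox11K91A. These ratios are descriptions without a test.

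**Figure D3:**
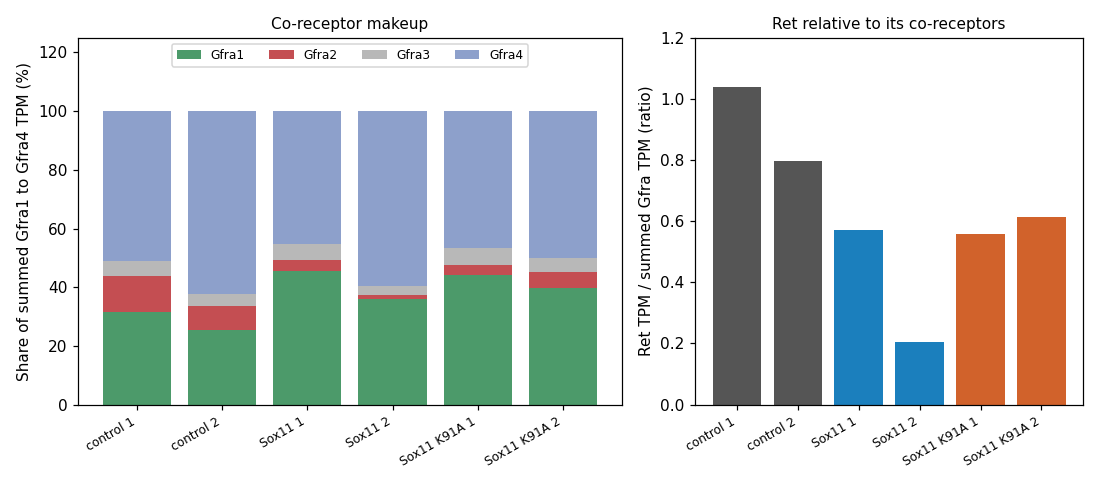
Left, share of each co-receptor gene in the summed TPM of *Gfra1* to *Gfra4* (%) in each library. Right, ratio of *Ret* TPM to that sum, which was 0.797 or more in the control libraries and 0.613 or less in the others.

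The purity of the cultures and the level of RGC markers were set beside these results. In bulk RNA, fewer cells of a type and less RNA per cell cannot be told apart. All 13 RGC markers were detected in every group, and their summed TPM was 10420 to 11420 in control, 4961 to 7828 with Sox11 and 6523 to 8015 with Sox11K91A. With Sox11, 4 of the 13 were lower (*Thy1*, *Slc17a6*, *Nefl* and *Nefm*) and with Sox11K91A 2 were lower (*Slc17a6* and *Nefm*), and 0 were higher. Of all genes tested, 10.2% were lower and 9.96% higher with Sox11, and 4.81% lower and 5.81% higher with Sox11K91A. *Thy1*, the gene of the antigen used for purification, had 725 and 689 CPM in control, 259 and 46.3 CPM with Sox11, and 154 and 312 CPM with Sox11K91A, so that replicate 2 of Sox11 was the lowest library for *Thy1* as for *Ret*, *Gfra2* and *Gdnf*. The other 9 RGC markers did not pass with Sox11. Against the control mean, *Pou4f1* was at 96.9% and 80.6% in the Sox11 libraries *Rbpms* at 94.9% and 81.7%, *Sncg* at 93.3% and 57.5%, and *Pou4f2* at 81.3% and 112%, while *Isl1* was at 106% and 101%, *Pou4f3* at 136% and 108%, *Ebf1* at 124% and 118%, *Ebf3* at 129% and 140%, and *Elavl4* at 113% and 152%. The part of RGC number or maturity in the values of *Ret*, *Gfra2* and *Gdnf* was not tested.

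**Figure D4:**
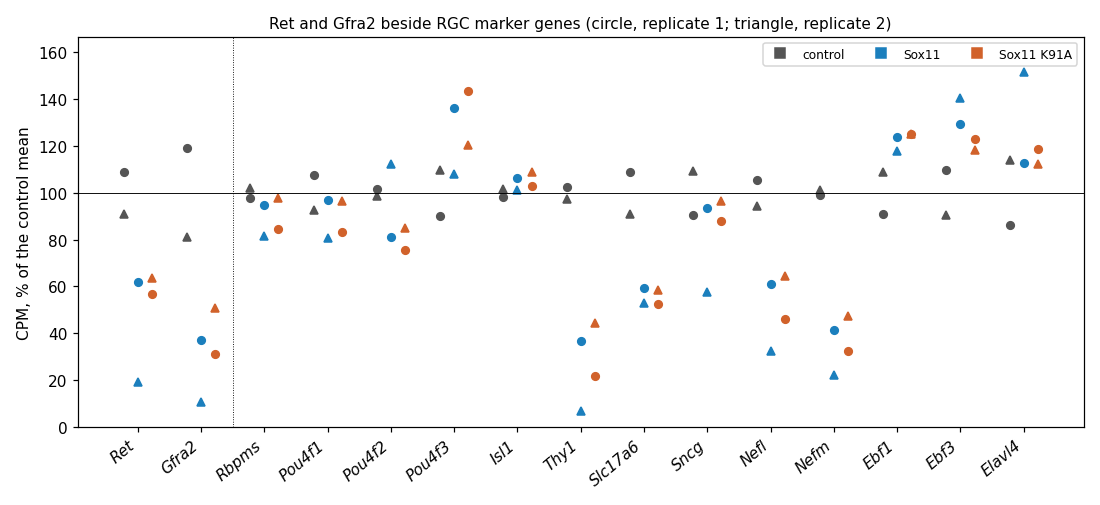
CPM as a percentage of the control mean for *Ret*, *Gfra2* and the 13 RGC markers, with a circle for replicate 1 and a triangle for replicate 2 of each group. *Ret* in replicate 2 of Sox11 was at 19.0% of the control mean and in the Sox11K91A libraries at 56.8% and 63.6%.

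Horizontal and amacrine cells are known to express *Ret* too. The summed TPM of the 5 horizontal cell markers was 98.2 to 334 in control, 58.6 to 151 with Sox11 and 113 to 156 with Sox11K91A, and 0 of 5 were called with either virus. In control *Calb1* (259.8 and 57.7 TPM) and *Sept4* (55.8 and 36.3 TPM) carried most of this sum. *Lhx1* was at most 1.23 TPM in any library. Of the 8 amacrine markers, 1 was lower (*Slc6a9*) and 1 higher (*Prox1*) with each virus, and their sum was 42.5 to 126 TPM in control, 36.5 to 71.7 TPM with Sox11 and 63.9 to 71.3 TPM with Sox11K91A. The 8 markers of Müller glia and astrocytes, which are known sources of GDNF, summed to 82.0 to 89.4 TPM in control, 223 to 258 TPM with Sox11 and 211 to 250 TPM with Sox11K91A. *Glul* carried this sum, at 80.6 and 68.6 TPM in control and 203 to 248 TPM with the viruses, and was called higher with both. The other 7 markers summed to 8.85 and 13.4 TPM in control, 5.85 and 10.8 TPM with Sox11 and 12.2 and 8.09 TPM with Sox11K91A. Of these 7, *S100b* was lower with Sox11, at few counts (13 and 18 in control, 2 and 0 with Sox11). *Gfap* was listed at 0 in all 6 libraries. The 7 photoreceptor markers summed to at most 2.94 TPM with *Rcvrn* at 0, and the 7 microglial markers to at most 6.24 TPM. Their part in the levels of the GDNF family genes was not tested.

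Genes around the receptor were then described from 5 lists, by the number called and the median. Beside each list stand 20.1% of all genes tested called with Sox11 and 10.6% with Sox11K91A. The median log2 fold changes of the whole table were 0.01 and 0.02. Of 32 RET adaptors and first effectors, all tested, 3 were lower with Sox11 (*Hras*, *Grb10* and *Map2k1*), 4 were higher (*Gab1*, *Pik3ca*, *Plcg1* and *Dok4*) and 25 did not pass, with a median log2 fold change of 0.03. Among the called genes, *Hras*, a small GTPase on the way to ERK, had the largest fall, from 139.7 ± 18.6 to 72.2 ± 7.01 CPM (log2 fold change -0.95, SE 0.16, adjusted p = 0.0144). Among the called genes, *Gab1*, a scaffold that links receptors to PI3 kinase, had the largest rise, from 14.8 ± 0.142 to 27.7 ± 4.12 CPM (0.91, SE 0.18, adjusted p = 0.0212). With Sox11K91A, *Hras* was lower (-0.72, adjusted p = 0.0357) and *Gab1* (0.79), *Plcg1* (0.71) and *Dok4* (0.67) were higher. *Grb10* (-0.83, adjusted p = 0.0508), *Map2k1* (-0.49, adjusted p = 0.0581) and *Pik3ca* (0.62, adjusted p = 0.0666) kept their direction with Sox11K91A and were not called. In all 28 genes did not pass with Sox11K91A, and the median was 0.06. These counts moved between 0 and 8 over 11 alternatives. Without replicate 2 of Sox11 every call of the whole table with Sox11 was lost, and without replicate 2 of control every call with Sox11K91A. A list could then hold no call, so these fits say nothing particular to any of the 5 lists.

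Of 15 other receptors, binding partners and limiters of the pathway, 14 were tested. *Itgb1*, an integrin subunit, was lower with Sox11 (279.6 ± 6.72 to 171.9 ± 17.8 CPM, log2 fold change -0.70, adjusted p = 0.0271) and with Sox11K91A (-0.67, adjusted p = 0.0422). *Sort1*, a sorting receptor of trophic factors, was higher with Sox11 (193.6 ± 55.5 to 396 ± 76.4 CPM, 1.05, adjusted p = 0.0296), and *Met*, the receptor kinase of hepatocyte growth factor, was lower with Sox11K91A (4.31 ± 0.737 to 1.66 ± 0.0714 CPM, -1.34, adjusted p = 0.0459). With the other virus they were not called, *Sort1* at 0.91 with Sox11K91A (adjusted p = 0.0572) and *Met* at -1.05 with Sox11 (adjusted p = 0.0544). *Ncam1*, a receptor through which GDNF is known to act without RET, was at 0.68 with Sox11 (adjusted p = 0.0575) and 0.49 with Sox11K91A (adjusted p = 0.157) and was not called. In the other direction, and also not called, *Sorl1* was at -1.23 with Sox11 (adjusted p = 0.0586) and -0.93 with Sox11K91A (adjusted p = 0.142). *Gdf15*, at 1.01 CPM in control, was at -2.09 (adjusted p = 0.0514) and -1.425 (adjusted p = 0.132) and was not called. Over 11 alternatives the number lower in this list ran from 0 to 4 with Sox11 and from 0 to 3 with Sox11K91A. The number higher ran from 0 to 2 with each.

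Of 8 genes known to rise under RET signalling in the developing kidney, 2 were higher with Sox11 (*Spry1* and *Dusp6*) and 1 with Sox11K91A (*Mmp14*), and 0 were lower with either. Of all genes tested, 9.96% were higher with Sox11 and 5.81% with Sox11K91A. The list medians were 0.93 and 0.83 on the log2 scale, beside 0.01 and 0.02 for the whole table. The highest values of the list with Sox11, of *Cxcr4* (2.47) and *Myb* (2.46), were not called and rest on 0.13 and 0.19 CPM in control. *Spry1*, an inhibitor of receptor kinase signalling, went from 2.39 ± 0.772 CPM in control to 5.97 ± 1.33 CPM with Sox11 (2.61-fold, log2 fold change 1.39, SE 0.38, adjusted p = 0.0459). *Dusp6*, an ERK phosphatase, went from 48.8 ± 3.22 to 85.5 ± 15.4 CPM with Sox11 (1.74-fold, adjusted p = 0.024). With Sox11K91A *Spry1* was at 0.99 (adjusted p = 0.145) and *Dusp6* at 0.67 (adjusted p = 0.0513) on the log2 scale, neither called. *Mmp14*, a membrane protease, went from 2.44 ± 0.470 to 6.46 ± 1.66 CPM with Sox11K91A (2.59-fold, adjusted p = 0.0432). With Sox11 *Mmp14* was at 1.06 on the log2 scale (adjusted p = 0.0637) and was not called. *Etv4* and *Etv5*, transcription factors that are central RET targets in the kidney, did not pass, with 0.42 (adjusted p = 0.0715) and 0.08 (adjusted p = 0.83) for Sox11. For Sox11K91A the values were 0.55 (adjusted p = 0.0516) and 0.07 (adjusted p = 0.882). Over 11 alternatives the number higher ran from 0 to 4 with Sox11 and from 0 to 3 with Sox11K91A. The calls with both viruses were lost without replicate 2 of control, and those with Sox11 also without replicate 2 of Sox11. Where every call of the whole table was lost too, as described above, this says nothing particular to the list.

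Of 9 ERK feedback genes, 8 were in the tables and tested, and *Spry2*, a paralog of *Spry1*, was the gene called. It fell from 44.9 ± 4.28 to 20.3 ± 0.780 CPM with Sox11 (log2 fold change -1.14, SE 0.16, adjusted p = 0.0124) and to 20.9 ± 2.31 CPM with Sox11K91A (-1.10, adjusted p = 0.019). Of 13 transcription factors known to act on *Ret* in other tissues, 5 passed the filter. The retinoic acid receptor genes *Rara* (25.3 ± 3.26 to 12.3 ± 2.05 CPM, -1.05, adjusted p = 0.0207) and *Rarb* (60.8 ± 12.7 to 18.1 ± 13.5 CPM, -2.01, adjusted p = 0.0413) were lower with Sox11, and *Rara* was lower with Sox11K91A (-0.94, adjusted p = 0.0358). *Rarb* was not called with Sox11K91A, at 22.5 ± 11.8 CPM, though both libraries (14.2 and 30.9 CPM) were below both controls. Over 11 alternatives the number lower with Sox11 ran from 0 to 2 in either list. With Sox11K91A it ran from 0 to 1 for the ERK feedback genes and from 0 to 2 for the transcription factors. Between Sox11K91A and Sox11, 0 genes of the 5 lists were called by limma-voom.

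**Figure D5:**
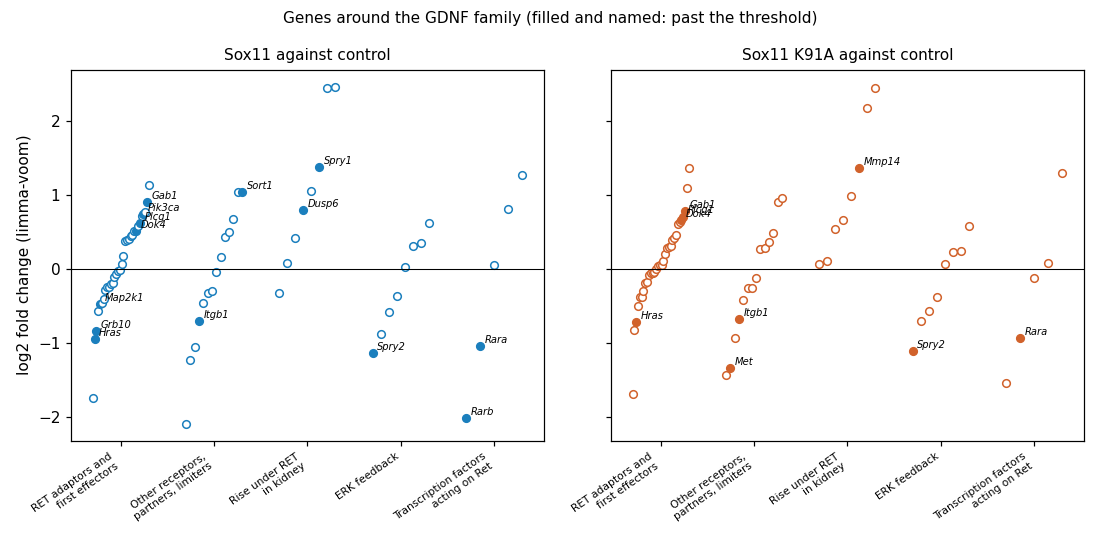
Log2 fold change of each tested gene of the 5 lists for Sox11 (left) and Sox11K91A (right) against control, with filled, named points past the threshold. The highest filled points are *Spry1* with Sox11, at 1.39, and *Mmp14* with Sox11K91A, at 1.37, and the lowest is *Rarb* with Sox11, at -2.01.

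The genes whose TMM-scaled log2 CPM followed a member most closely over the 6 libraries were listed among 13377 genes with a mean of at least 1 CPM. These were *Adssl1* (r = 0.9953), *Ppm1j* (0.9948) and *Gm2115* (0.9941) for *Ret*, *Pnma3* (0.9986), *Galnt14* (0.9983) and *Ciapin1* (0.9982) for *Gfra2*, and *Tmed8* (0.9996), *Tmem229a* (0.9992) and *Slc6a8* (0.9988) for *Gdnf*. Over 6 libraries such values are common, since 388 genes followed *Ret*, 772 *Gfra2* and 762 *Gdnf* with an r above 0.95. The closest genes were *Tmub2* (0.9862), *Ooep* (0.9848) and *Efcab5* (0.9836) for *Gfra1*, *Shc2* (0.9894), *Tcea2* (0.9861) and *Gm10654* (0.9843) for *Gfra3*, and *Golt1b* (0.9949), *Dnajc4* (0.9922) and *Fez2* (0.9908) for *Gfra4*. Fewer genes passed an r of 0.95 for these members, 27, 32 and 62. The points share the 3 groups and the depth of each library, and the values are descriptions.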

How the data were processed

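The authors aligned reads to mm10 with STAR, and the deposited values are RSEM expected counts per gene (not normalized), TPM (scaled by gene length and to a fixed total) and effective lengths. Versions, annotation and strand setting are not given in the sources used here. Expected counts were rounded, filtered (filterByExpr of edgeR 4.0.16, 3 groups), scaled by TMM (factors 0.985 to 1.04) and tested with limma-voom (limma 3.58.1, R 4.3.3) in 1 fit of 6 libraries with no covariate. P-values are two-sided and adjusted by the Benjamini-Hochberg method over 15747 genes. Symbols and positions came from GENCODE M21 (GRCm38), which named 98% of 43346 genes. The genes, lists and alternatives were chosen with earlier results of these data known. Of each list, called genes were named (at most 6 per comparison), and for each member the 3 genes with the highest Pearson r. *Etv4*, *Etv5*, *Cxcr4*, *Myb*, *Ncam1*, *Sorl1*, *Gdf15* and single markers were named after their values were seen. 1 gene of the kidney list is not reported here. The fit was tested on simulated data. Alternatives were edgeR's quasi-likelihood test, DESeq2 1.42.0, quality weights, limma-trend on log2(TPM + 1), other scalings, filters and fold thresholds, blocks, 2 groups only, and each replicate left out.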

Additional observations from a re-analysis of the deposited data

How the results depend on the processing

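Every alternative kept the direction of *Gdnf*, *Gfra2*, *Ret* and *Artn* against control with both viruses. With Sox11 the number of members called (2) was 1 with edgeR, with all genes with at least 1 count or with 2 groups only, 0 with quality weights or limma-trend, and 0 to 2 with a replicate left out. With Sox11K91A (0) it was 1 with DESeq2, quality weights, at least 10 counts in every library or 2 groups only, 2 with a block for control 2 and Sox11 2, and 0 to 1 with a replicate left out. Genes called with Sox11 (3171) were 1224 with quality weights, 1598 with 2 groups only, 1853 at a fold threshold of 2, and 0 (without replicate 2 of Sox11) to 3753 with a replicate left out. Genes called with Sox11K91A (1672) were 3144 with DESeq2, 936 with limma-trend, 2894 with the block for control 2 and Sox11 2, 1068 at a fold of 2, and 0 (without replicate 2 of control) to 2563 with a replicate left out. DESeq2 called 2 genes between the viruses. In limma-trend 932 of 2244 genes called with Sox11 were lower, against 1603 of 3171, and in DESeq2 1593 of 3144 were lower with Sox11K91A, against 757 of 1672.

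With the replicate number as a block (replicate block), 2679 and 1402 genes were called against control and 0 between viruses, and *Ret* with Sox11 passed (-1.54, adjusted p = 0.0408). *Ret* also passed with DESeq2 (-1.32, adjusted p = 0.018) and with the block for control 2 and Sox11 2 (-1.54, adjusted p = 0.0184), a block set from these same data. The numbers come from the titles, and deviations from the group mean correlated across genes between libraries of the same number at 0.259, -0.045 and -0.282. With the Sox11K91A numbers exchanged, chosen after seeing the data, 0 genes were called between viruses and 208 had an unadjusted p under 0.05.

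With the block for control 2 and Sox11 2, *Gfra3* reversed with Sox11K91A (-0.17), and *Gdnf* (-0.38) and *Gfra4* (0.15) reversed between viruses. Leaving out a replicate reversed uncalled differences: with Sox11, *Nrtn* (-1.88 to 0.14), *Gfra1* (-0.079 to 0.30), *Gfra3* (-0.88 to 0.25) and *Gfra4* (-0.43 to 0.0060), and between viruses, *Gdnf* (-0.34 to 0.51), *Ret* (-0.036 to 1.68), *Gfra3* (-0.11 to 1.01) and *Gfra4* (-0.17 to 0.10). Of 220 list counts recomputed, 130 stayed within 1.5 times. The causes were not tested. Depth limits *Nrtn*, *Artn* and *Pspn*, with at most 26 counts in a library.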
